A study of Mus musculus with 12 samples.

Results

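The proteasome genes of the mouse ovary were followed in 12 whole-ovary RNA samples, 1 mouse and 1 array each, from lethal yellow (LY) and black mice at 180 and 90 days of age. A gene was taken as a member when the platform annotation gave its probe a single symbol that starts with Psma, Psmb, Psmc, Psmd or Psme followed by a digit. This took 49 of the 21615 probes with 1 symbol, for 43 of 18069 genes, and each gene is given by its probe with the highest mean log2 value. Of the 43 genes, 38 encode subunits or activators of the proteasome, 3 (Psmd5, Psmd9 and Psmd10) encode factors that help to assemble it, and 2 (Psmc3ip and Psme3ip1) share the symbol without being subunits. Psmb10 had only a probe shared with another gene, so no value is given for it, and no probe of the annotation used here was listed for Psme4.

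The LY mice carried the Ay allele over a (strain labelled C56BL/6J Ay/a, given as C57BL/6J in the study's methods), and the black mice were a/a on the same background. The Ay allele joins the agouti gene to the promoter of Raly by a deletion, so agouti is made throughout the body, and the mice grow obese as they age. All 12 mice, the black controls included, had been given Antide, a GnRH antagonist, at 10 microg/g on days 1 and 4. They then received equine chorionic gonadotropin (eCG), a hormone that stimulates follicles, at a dose of 1 IU/5 g of body weight, and the ovaries were taken on day 7. There were 3 mice in each of the 4 groups, and none were pooled. The values thus describe ovaries under a suppressed and then stimulated cycle, and not the natural cycle.

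The 26S proteasome is the protease that degrades most short-lived and damaged proteins of the cell once they carry a chain of ubiquitin. Its 20S core is a barrel of outer alpha rings, which guard the entrance, and inner beta rings, which hold the proteolytic sites of Psmb5 (chymotrypsin-like), Psmb6 (caspase-like) and Psmb7 (trypsin-like). The 19S cap binds the ubiquitin chain and removes it, and its ring of ATPases (Psmc1 to Psmc6) unfolds the protein and feeds it into the core. Interferon brings in Psmb8, Psmb9 and Psmb10 in place of the constitutive catalytic subunits, together with the activator made of Psme1 and Psme2, and the peptides made serve MHC class I presentation. The subunits are made in fixed proportion, and the transcription factor NRF1 (Nfe2l1) raises most of their genes together when proteasome activity falls short. In the ovary, the ubiquitin-proteasome system is known for its part in oocyte maturation and in the turnover of cell cycle regulators of granulosa cells.

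Promoters of 6 genes are shown first, some for a motif match and some for their values, because subunit genes are known to share short control motifs. Promoter windows of 300 bases (250 before to 50 after the RefSeq start, build GRCm38.p6) were matched for 36 of the 43 genes. Each line gives the 110 bases directly before the start, 5′ to 3′ on the gene's own strand, and capitals mark a searched motif. The motifs were the antioxidant response element core TGACNNNGC, to which NRF1 and NRF2 bind, the interferon-stimulated response element core (GAAA, any 2 bases, GAAA), the GAS element TTCNNNGAA, the CCAAT box and the GC box GGGCGG, each on both strands.
Psmb5 (chr14:54617996-54618105, minus strand): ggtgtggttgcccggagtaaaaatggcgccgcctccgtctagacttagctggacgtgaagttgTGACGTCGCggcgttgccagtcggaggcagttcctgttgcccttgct
Psmb6 (chr11:70525247-70525356, plus strand): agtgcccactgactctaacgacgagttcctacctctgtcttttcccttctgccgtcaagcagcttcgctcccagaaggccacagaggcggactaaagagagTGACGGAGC
Psmd9 (chr5:123228080-123228189, plus strand): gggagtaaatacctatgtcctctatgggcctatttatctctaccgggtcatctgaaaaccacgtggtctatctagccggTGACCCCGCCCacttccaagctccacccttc
Psmc5 (chr11:106256075-106256184, plus strand): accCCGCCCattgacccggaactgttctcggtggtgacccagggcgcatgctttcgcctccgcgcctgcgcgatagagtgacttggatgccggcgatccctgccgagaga
Psmd4 (chr3:95042615-95042724, minus strand): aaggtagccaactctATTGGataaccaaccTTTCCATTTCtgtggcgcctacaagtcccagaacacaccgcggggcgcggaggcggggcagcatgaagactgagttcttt
Psme3 (chr11:101316103-101316212, plus strand): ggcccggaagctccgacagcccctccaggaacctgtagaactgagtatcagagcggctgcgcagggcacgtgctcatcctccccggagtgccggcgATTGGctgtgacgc
Psmb5 and Psmb6 encode catalytic subunits and are shown for the TGACNNNGC match that starts 47 bases before the Psmb5 start and 9 bases before the Psmb6 start. In Psmd9 the same motif starts 31 bases before the start and overlaps a GC box. Psmc5 and Psmd4, a cap ATPase and a ubiquitin receptor of the cap, are shown for their values at 90 days, and Psmd4 holds the interferon-stimulated element core 80 bases before its start. Psme3, an activator of the core, is shown for its values at 180 days and holds a CCAAT box 14 bases before its start.

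Over the matched genes, 5 of 36 (13.9%) held TGACNNNGC in a window, namely Psmb5, Psmb6, Psmc6, Psmd9 and Psmd12, against 14% of the 27025 genes with a window. The interferon-stimulated core was held by 4 of 36 (11.1%) against 3.99%, TTCNNNGAA by 2 (5.56%) against 9.55%, CCAAT by 16 (44.4%) against 41.1%, and the GC box GGGCGG by 22 (61.1%) against 38.2%. These are letter matches in a fixed window and say nothing of whether a factor binds there.

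Of the 43 genes, 41 entered the test, which covered the 31359 probes that reached a group mean of 0.2 units (the limit of sensitivity) in at least 1 group and had a value in all 4. Values are relative intensities in units of the median probe of the array. Psma4, an alpha ring subunit, had no value on the 180-day arrays, and its 90-day means were 34.8 ± 2.19 (SD, n = 3) in black and 34.1 ± 1.17 in LY ovaries. Psmd6, a cap subunit, had no value on the 90-day arrays, and its 180-day means were 47.8 ± 3.54 in black and 49.99 ± 1.03 in LY ovaries. Psmb11, the thymus-specific catalytic subunit, passed the limit only through 1 array, 90-day LY replicate 1. Most of the other genes were bright, and 30 of the 41 lay in the brightest 10% of all probes tested.

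The labels held in the check of the allele. Agouti lay between 95.7 and 111 units on the LY arrays and between 0.169 and 0.368 units on the black arrays, and both Raly probes had lower means in LY than in black ovaries at each age. Arrays of a group correlated at 0.970 to 0.987. The arrays of each age were a set of their own, so a difference between 180 and 90 days cannot be told apart from a difference between array sets.

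At 180 days, 40 of the 41 proteasome genes had a higher mean log2 level in LY than in black ovaries, against 55.9% of all probes tested, and none passed an adjusted p of 0.05 (limma), against 0.0446% of all probes. The median difference of the 41 genes was 0.17 on the log2 scale, against 0.03 over all probes, with a range from -0.02 to 0.37. At an unadjusted p of 0.05, 7 genes were past the threshold, all higher in LY ovaries, against 7.05% of all probes higher and 4.91% lower. These were Psmb5, Psme3, Psmc4, Psmb7, Psmb2, Psma7 and Psma3. The arrays of LY and black mice did not overlap, with LY above black, for 16 of the 41 genes, against 14.2% of all probes, and no gene had all LY arrays below black, against 8.32%. The smallest adjusted p of the 41 genes was 0.144.

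At 90 days, the balance was the other way for 32 of the 41 genes, which had a lower mean log2 level in LY than in black ovaries, against 50.9% of all probes. None passed an adjusted p of 0.05, against 0.0446% of all probes, and the smallest adjusted p was 0.108. The median difference was -0.12 on the log2 scale, against 0.00 over all probes, with a range from -0.42 to 0.39. At an unadjusted p of 0.05, 8 genes were past the threshold, all lower in LY ovaries, against 8.06% of all probes lower and 5.21% higher. These were Psmc5, Psmd3, Psmd4, Psmc2, Psme1, Psmd7, Psmb5 and Psmc1. LY and black arrays did not overlap, with LY below black, for 12 genes, against 9.43% of all probes, and no gene had all LY arrays above black, against 6.81%.

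**Figure D1:**
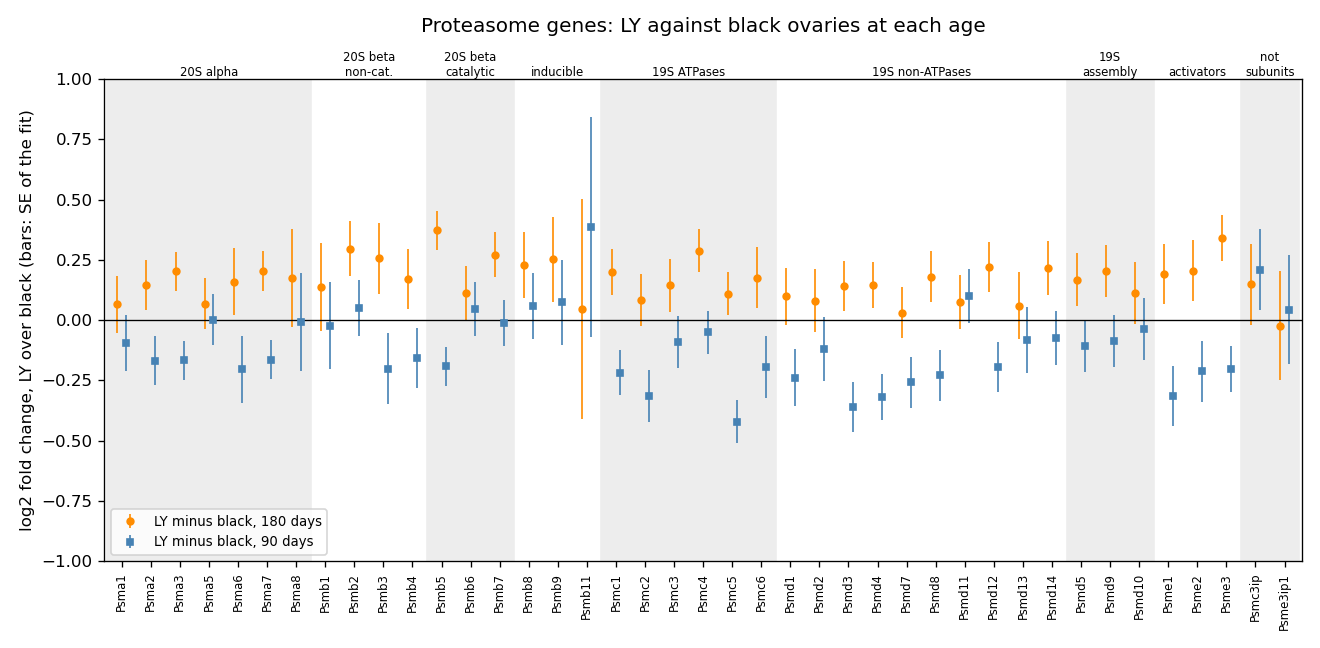
Log2 fold change of LY over black ovaries (vertical axis) for the 41 proteasome genes tested (horizontal axis, grouped by role), at 180 days (circles) and 90 days (squares), with bars for the standard error of the fit on 3 arrays per group. At 180 days 40 of the 41 circles lie above 0, and at 90 days 32 of the 41 squares lie below 0.

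The median of these differences depended on how the arrays were put on a common scale. Under quantile normalization the median at 180 days was 0.08, with 35 genes above 0, and at 90 days -0.04, with 13 above 0. Under cyclic loess normalization it was 0.09 with 34 genes above 0, and -0.04 with 15 above 0. With each array divided by its median, the brightest 10% of all probes had a median of 0.07 at 180 days, with 70.8% of them above 0, and of -0.06 at 90 days, with 66.3% below 0. The 30 proteasome genes among them had a median of 0.17 at 180 days, with 30 above 0, and of -0.18 at 90 days, with 26 below 0. The genes thus lay on the side to which bright probes lay in general, and their median was farther from 0. The part of brightness and scaling in the difference was not tested beyond these values.

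**Figure D2:**
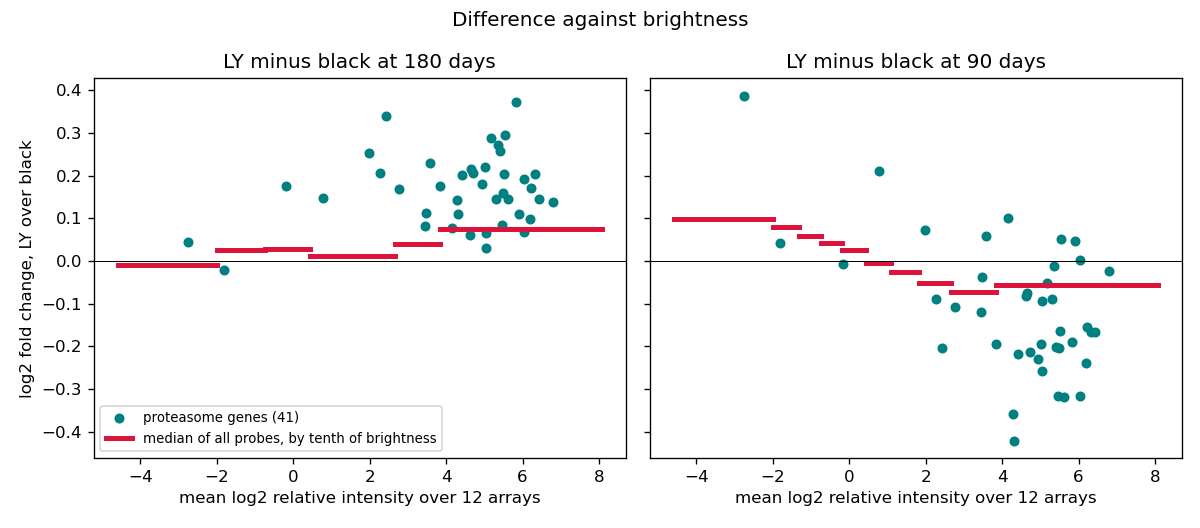
Log2 fold change of LY over black ovaries (vertical axis) against mean log2 relative intensity over 12 arrays (horizontal axis) at 180 days (left) and 90 days (right). Points are the 41 proteasome genes, and each red line is the median of all probes in 1 of 10 bins of brightness with equal numbers of probes: in the brightest bin the line lies at 0.07 on the left and at -0.06 on the right.

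The shift was shared by the arrays of a group. The mean deviation of the 41 genes from their own 12-array means was 0.10, 0.08 and 0.04 (log2) in the 180-day black ovaries and 0.17, 0.28 and 0.27 in the 180-day LY ovaries. In the 90-day black ovaries it was -0.13, 0.00 and -0.18, and in the 90-day LY ovaries -0.18, -0.20 and -0.25. All 180-day LY arrays thus lay above all 180-day black arrays, and all 90-day LY arrays lay below all 90-day black arrays, although 90-day black replicate 3 and 90-day LY replicate 1 lay within 0.01 of each other. Between LY and black ovaries the group means differed by 0.16 at 180 days and by -0.11 at 90 days. The SDs within a group were 0.03 in black and 0.06 in LY ovaries at 180 days, and 0.09 in black and 0.04 in LY ovaries at 90 days. Replicate 2 was the highest of the 90-day black arrays, and without it the 90-day difference was -0.06. With quantile normalization the differences were 0.08 at 180 and -0.05 at 90 days, and with cyclic loess 0.09 and -0.03.

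**Figure D3:**
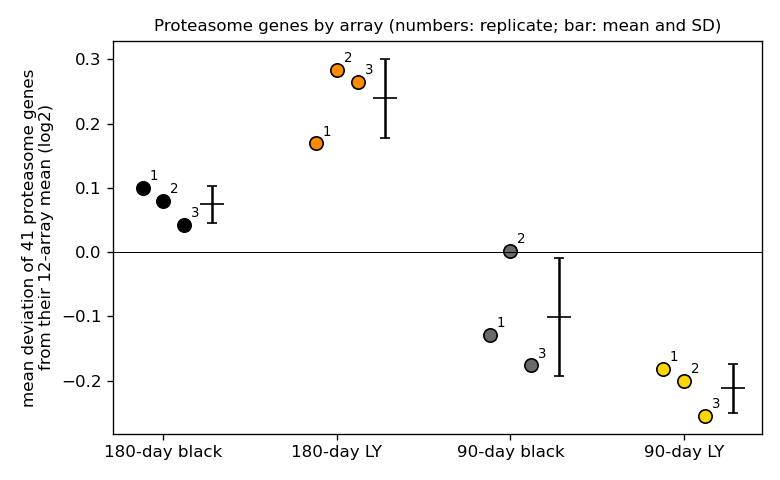
Mean deviation of the 41 proteasome genes from their own 12-array means (log2, vertical axis) on each array of the 4 groups (horizontal axis). Points are arrays numbered by replicate, and bars are the group mean and SD (n = 3): the 180-day LY arrays lie highest and the 90-day LY arrays lowest.

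The median SD within a group over the 41 genes was 0.13 on the log2 scale, against 0.17 over all probes, from 0.07 for Psmb5 to 0.63 for Psmb11. These medians are not matched for brightness, as 30 of the 41 genes lay in the brightest 10% of probes. RNA of a whole ovary is an average over its cells, and fewer cells of a type and less RNA per cell cannot be told apart in it.

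Among the constitutive catalytic subunits, Psmb5 had the smallest p at 180 days. Its relative intensity was 55.3, 58.8 and 55.6 units in the 180-day black ovaries and 69.02, 77.8 and 72.97 units in the 180-day LY ovaries. In the 90-day ovaries it was 55.5, 55.8 and 50.03 units in black and 48.1, 46.9 and 46.3 units in LY mice. All LY arrays lay above the black arrays at 180 days and below them at 90 days. The difference was 0.37 ± 0.08 (SE) on the log2 scale at 180 days, a fold of 1.29 (limma, adjusted p = 0.144), and -0.19 ± 0.08 at 90 days (adjusted p = 0.348). With array quality weights its adjusted p at 180 days was 0.0467, past the threshold, which 0.474% of all probes then passed, against 0.0446% without weights. Psmb7 read 45.6, 40.98 and 40.8 units in the 180-day black ovaries and 49.7, 52.04 and 51.9 units in the 180-day LY ovaries, without overlap. At 90 days it read 39.6, 32.1 and 37.3 units in black and 36.3, 37.00 and 34.5 units in LY ovaries, and the groups overlapped. Its log2 difference was 0.27 at 180 days (adjusted p = 0.304) and -0.01 at 90 days (adjusted p = 0.975). The latter was above 0, at 0.15, with quantile normalization.

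Psmb6, the caspase-like subunit, overlapped between LY and black ovaries at both ages. It read 63.6, 56.1 and 60.2 units in the 180-day black ovaries, 64.1, 73.5 and 57.4 in the 180-day LY ovaries, 58.8, 59.2 and 54.4 in the 90-day black ovaries and 66.6, 58.1 and 53.9 in the 90-day LY ovaries. The log2 difference was 0.11 at 180 days and 0.05 at 90 days (adjusted p = 0.745 and 0.901), with 95% intervals from -0.14 to 0.36 and from -0.21 to 0.30.

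The interferon-inducible subunits overlapped between LY and black ovaries as well. Psmb8, the counterpart of Psmb5, read 12.7, 14.3 and 13.2 units in the 180-day black ovaries and 13.1, 15.04 and 19.5 units in the 180-day LY ovaries, of which replicate 3 was the highest. At 90 days it read 9.73, 8.80 and 10.2 units in black and 9.27, 10.4 and 10.2 units in LY ovaries. The log2 difference was 0.23 at 180 days (adjusted p = 0.544) and 0.06 at 90 days (adjusted p = 0.892). Without 180-day LY replicate 3 the former was 0.07. On that array the leukocyte genes Ptprc (CD45) and Itgam (CD11b) were also highest, Ptprc at 4.38 units against 0.720 and 0.986 on the other 180-day LY arrays and Itgam at 1.45 against 0.189 and 0.554. Of the other leukocyte markers tested, Laptm5 and Cd79a were also highest there among the 180-day LY arrays. Lyz2 (44.4 units against 54.2 on replicate 2) and Cd3e (0.123 against 0.132) were not. The part of leukocytes in the Psmb8 value was not tested. Psmb9, the counterpart of Psmb6, read 3.41, 4.32 and 3.38 units in the 180-day black ovaries and 3.70, 4.30 and 5.30 in the 180-day LY ovaries. At 90 days it read 4.21, 4.18 and 3.20 units in black and 3.36, 4.33 and 4.50 units in LY ovaries, again with overlap. Its log2 difference was 0.25 at 180 days and 0.07 at 90 days (adjusted p = 0.605 and 0.898).

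The balance of inducible over constitutive subunits within an array was taken as the log2 ratio of their probes, of which only differences between groups can be read. The ratio of Psmb8 over Psmb5 differed by -0.14 between LY and black ovaries at 180 days (group SDs 0.04 in black and 0.28 in LY) and by 0.25 at 90 days (SDs 0.19 and 0.11). The ratio of Psmb9 over Psmb6 differed by 0.14 at 180 days (SDs 0.28 and 0.38) and by 0.03 at 90 days (SDs 0.16 and 0.38). Of these, the difference at 90 days for Psmb8 over Psmb5 was larger than the SD of either group. The LY and black arrays overlapped there, and the difference was not tested. Psmb11, made in the cortex of the thymus, was near the limit of sensitivity, and in the 90-day LY ovaries it read 0.412, 0.112 and 0.110 units. Its 90-day log2 difference of 0.39 (adjusted p = 0.765) was the highest of the 41 genes and went to -0.24 without 90-day LY replicate 1.

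The alpha ring held 7 tested genes, of which 7 had an estimate above 0 at 180 days and 6 below 0 at 90 days, with medians of 0.16 and -0.16. Psma3 read 86.5, 88.1 and 85.3 units in black and 96.5, 106 and 97.1 units in LY ovaries at 180 days, and 70.9, 79.01 and 68.2 in black and 63.1, 65.8 and 65.1 in LY ovaries at 90 days. Psma7 read 53.9, 54.9 and 51.8 units in black and 60.4, 64.1 and 60.5 units in LY ovaries at 180 days, and 36.5, 41.04 and 36.97 in black and 33.2, 32.7 and 36.3 in LY ovaries at 90 days. For both genes the LY arrays lay above all black arrays at 180 days and below all of them at 90 days. Their log2 differences were 0.20 and 0.20 at 180 days (adjusted p = 0.367 and 0.366) and -0.17 and -0.16 at 90 days (adjusted p = 0.409 and 0.419). Psma8, a testis-specific alpha subunit, was dim, with group means from 0.779 to 0.984 units. The 4 non-catalytic beta subunits (Psmb1 to Psmb4) had medians of 0.21 at 180 days, all 4 above 0, and of -0.09 at 90 days, 1 above 0.

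The 6 ATPases of the cap had estimates above 0 at 180 days in 6 of 6 genes, with a median of 0.16, and below 0 at 90 days in 6 of 6 genes, with a median of -0.21. Psmc5 had the smallest p of all proteasome genes at 90 days. It read 18.3, 20.8 and 18.6 units in the 90-day black ovaries and 14.5, 14.7 and 13.8 units in the 90-day LY ovaries, which did not overlap. At 180 days it read 24.8, 22.2 and 21.9 units in black and 23.2, 24.6 and 26.4 units in LY ovaries, which did. The log2 difference was -0.42 ± 0.09 (SE) at 90 days, a fold of 0.747 (adjusted p = 0.108), and 0.11 at 180 days (adjusted p = 0.67). Psmc4 showed the other order, with 37.7, 33.4 and 37.4 units in black and 42.6, 48.3 and 41.5 units in LY ovaries at 180 days, without overlap. At 90 days it read 32.9, 33.1 and 32.3 units in black and 30.6, 30.7 and 33.7 units in LY ovaries, with overlap. Its log2 difference was 0.29 at 180 days (adjusted p = 0.262) and -0.05 at 90 days (adjusted p = 0.854), and 0.04 at 90 days with cyclic loess. A second, dimmer Psmc4 probe (group means from 0.302 to 0.952 units) differed by 0.07 at 180 days and by 0.35 at 90 days, where its LY arrays lay above all black arrays (adjusted p = 0.169). Psmc1 read 20.03, 18.6 and 19.96 units in black and 21.3, 22.4 and 23.6 units in LY ovaries at 180 days, and 22.3, 25.1 and 23.1 in black and 18.03, 21.7 and 21.00 in LY ovaries at 90 days. It separated the groups at both ages, with log2 differences of 0.20 and -0.22 (adjusted p = 0.438 and 0.359).

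Among the non-ATPase subunits of the cap, which include the ubiquitin receptors and the deubiquitinase Psmd14, 10 genes were tested. All 10 had an estimate above 0 at 180 days, with a median of 0.12, and 9 of 10 were below 0 at 90 days, with a median of -0.21. Psmd3, a scaffold subunit of the cap, read 25.02, 26.5 and 21.6 units in the 90-day black ovaries and 19.9, 18.6 and 18.3 units in the 90-day LY ovaries. Psmd4, a ubiquitin receptor, read 41.3, 48.7 and 46.3 units in the 90-day black ovaries and 35.4, 35.2 and 38.5 units in the 90-day LY ovaries. For both genes every 90-day LY array lay below every black array. The log2 differences at 90 days were -0.36 and -0.32, folds of 0.780 and 0.801 (adjusted p = 0.198 and 0.205). At 180 days Psmd3 read 19.3, 15.9 and 16.1 units in black and 19.1, 18.4 and 18.98 in LY ovaries, and Psmd4 read 52.4, 61.2 and 55.96 in black and 61.7, 66.1 and 59.7 in LY ovaries. Both overlapped there, with log2 differences of 0.14 and 0.15 (adjusted p = 0.626 and 0.579). Psmd11, a scaffold subunit, was the exception at 90 days, with 13.6, 13.4 and 15.5 units in black and 17.4, 14.8 and 13.5 units in LY ovaries. Its log2 difference was 0.10 (adjusted p = 0.752) and 0.00 without 90-day LY replicate 1.

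The activators cap the core in place of the 19S particle, and all 3 that were tested had an estimate above 0 at 180 days and below 0 at 90 days, with medians of 0.21 and -0.21. Psme3, the nuclear activator PA28 gamma, read 5.68, 5.45 and 5.26 units in black and 6.20, 7.26 and 7.34 units in LY ovaries at 180 days. At 90 days it read 5.18, 5.36 and 4.66 units in black and 4.21, 4.34 and 4.64 units in LY ovaries. LY arrays lay above all black arrays at 180 days and below all of them at 90 days. The log2 difference was 0.34 ± 0.09 (SE) at 180 days, a fold of 1.27 (adjusted p = 0.222), and -0.20 at 90 days (adjusted p = 0.394).

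Psme1 and Psme2 form the interferon-inducible activator PA28, and the probes given for them had like differences. Psme1 read 73.6, 70.5 and 65.8 units in black and 75.5, 79.7 and 84.7 units in LY ovaries at 180 days, and 68.05, 71.95 and 55.1 in black and 46.1, 50.8 and 59.7 in LY ovaries at 90 days. Psme2 read 27.4, 33.6 and 25.98 units in black and 33.3, 33.7 and 32.6 units in LY ovaries at 180 days, and 25.1, 26.4 and 21.1 in black and 23.5, 19.9 and 19.2 in LY ovaries at 90 days. Psme1 separated the groups at 180 days, and the other comparisons overlapped. The log2 differences at 180 days were 0.19 and 0.21 (adjusted p = 0.579 and 0.556), and at 90 days -0.32 and -0.21 (adjusted p = 0.318 and 0.506). A second, dimmer Psme1 probe (group means from 1.27 to 1.41 units) differed by -0.02 and 0.04, with an interaction of -0.05, so these Psme1 values rest on the bright probe.

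**Figure D4:**
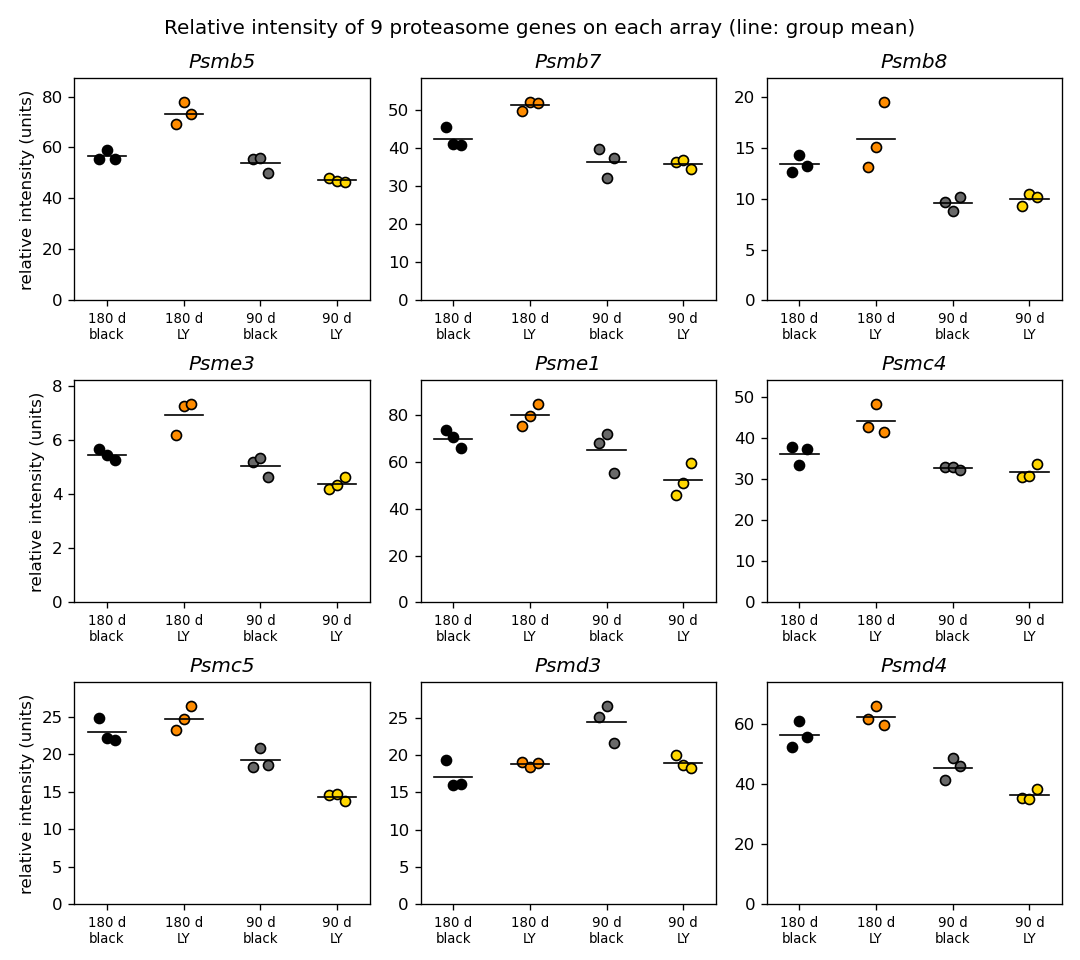
Relative intensity (units of the array median, linear axes from 0) of 9 proteasome genes on each of 12 arrays, by group, with 1 point per array and a line at the group mean (n = 3). Psmb5 and Psme3 lie higher in LY than in black ovaries at 180 days and lower at 90 days, Psmb7 and Psmc4 are separated at 180 days, Psmc5, Psmd3 and Psmd4 at 90 days, and Psmb8 overlaps at both ages.

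The assembly factors Psmd5, Psmd9 and Psmd10, which hold parts of the cap until it is complete, had estimates above 0 at 180 days and below 0 at 90 days, with medians of 0.17 and -0.09. Psmd9 read 4.71, 5.31 and 4.87 units in black and 5.93, 5.50 and 5.72 units in LY ovaries at 180 days, without overlap, and 4.19, 4.98 and 4.56 in black and 4.85, 3.78 and 4.31 in LY ovaries at 90 days. Psmd10, known as gankyrin, read 13.1, 14.5 and 14.2 units in black and 14.3, 16.3 and 14.6 units in LY ovaries at 180 days, and 8.73, 9.83 and 7.59 in black and 10.04, 7.68 and 7.80 in LY ovaries at 90 days. Apart from Psmd9 at 180 days, these groups overlapped.

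Psmc3ip and Psme3ip1, which are not subunits, had 1 of 2 estimates above 0 at 180 days and 0 of 2 below 0 at 90 days. Psmc3ip, a factor of meiotic recombination, read 2.67, 2.87 and 2.51 units in black and 3.52, 2.56 and 2.90 units in LY ovaries at 180 days, and 0.764, 1.18 and 1.00 in black and 1.17, 1.21 and 0.989 in LY ovaries at 90 days, with a 90-day log2 difference of 0.21 (adjusted p = 0.628). Psme3ip1, which binds Psme3, read 0.557, 0.466 and 0.623 units in black and 0.468, 0.606 and 0.544 units in LY ovaries at 180 days and was under 0.2 units on every 90-day array. LY and black ovaries overlapped for both genes at each age, and Psme3ip1 was the 1 gene of 41 with an estimate below 0 at 180 days. With these genes and the assembly factors left out, 36 of 36 subunits and activators had an estimate above 0 at 180 days and 29 of 36 below 0 at 90 days.

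Whether the LY difference itself changed with age was tested as an interaction, in which a shift between the array sets cancels. Of the 41 genes, 37 had a larger difference at 180 than at 90 days, against 54.1% of all probes, with a median of 0.29 on the log2 scale against 0.03. None passed an adjusted p of 0.05, against 0% of all probes tested, and at an unadjusted p of 0.05 there were 14 genes, all above 0, against 8.01% of all probes above and 4.1% below 0. The medians were 0.12 with quantile normalization and 0.13 with cyclic loess. Under each of these, 4 genes were past an unadjusted p of 0.05, against 11.1% and 11.5% of all probes. With each array divided by its median, the brightest 10% of all probes, which held 30 of the 41 genes, had a median interaction of 0.13. For Psmb5 the interaction was 0.56 with a 95% interval from 0.31 to 0.81 (adjusted p = 0.107). With an intensity trend in the prior variance its adjusted p was 0.0420, past the threshold, which 0.631% of all probes then passed. The next by p were Psmc5 at 0.53 and Psme3 at 0.54 (adjusted p = 0.148 and 0.155). Psme1 and Psme2 had interactions of 0.51 and 0.42 (adjusted p = 0.277 and 0.383).

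An estimate above 0 at 180 days together with one below 0 at 90 days was found for 32 of the 41 genes, against 27.8% of all probes. LY arrays lay above all black arrays at 180 days and below all of them at 90 days for 5 of the 41 genes, against 1.79% of all probes. These were Psmb5, Psme3, Psma7, Psma3 and Psmc1, named after their values were seen. The interactions of Psma3, Psma7 and Psmc1 were 0.37, 0.37 and 0.42 (adjusted p = 0.226, 0.23 and 0.237).

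Genes around the proteasome were given by fixed lists, and none of them passed an adjusted p of 0.05 between LY and black ovaries at either age. The chaperones that build the 20S core (Psmg1 to Psmg4 and Pomp) had 5 of 5 estimates above 0 at 180 days and 4 of 5 below 0 at 90 days, with medians of 0.11 and -0.11. Psmg3 had the smallest p of them, with a log2 difference of -0.30 at 90 days (adjusted p = 0.225), and Pomp read 0.18 at 180 and -0.11 at 90 days. Of the proteasome-bound proteins, 8 of 13 listed genes were tested, with 5 of 8 above 0 at 180 days (median 0.07) and 8 of 8 below 0 at 90 days (median -0.09). Among them Uchl5, a deubiquitinase of the cap, had the smallest p at 180 days, with a log2 difference of 0.30.

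The genes of NRF1 and NRF2 control had no common direction at 180 days, with 4 of 8 above 0 and a median of 0.00, and 7 of 8 were below 0 at 90 days, with a median of -0.18. Mafk, a small Maf partner of NRF1 and NRF2, had the smallest p, with a log2 difference of -0.45 at 90 days (adjusted p = 0.124). Nfe2l1, which encodes NRF1, differed by -0.05 at 180 days and by 0.00 at 90 days. Of the ubiquitin and p97 list only 3 of 8 genes were tested, with 3 of 3 above 0 at 180 days (median 0.10) and 1 of 3 above 0 at 90 days (median -0.23). Vcp, which encodes p97, differed by 0.28 at 180 days and 0.00 at 90 days. Its cofactors Ufd1 and Nploc4 both differed by -0.23 at 90 days, with every LY array below the black arrays (adjusted p = 0.269 and 0.278).

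The genes of MHC class I presentation and its interferon control, with 10 of 12 tested, had medians of 0.05 at 180 days and 0.00 at 90 days. Tap2, a peptide transporter, differed by 0.43 at 180 days and by -0.42 at 90 days (adjusted p = 0.353 and 0.319). The leukocyte markers tested (6 of 10 listed) had medians of -0.03 and 0.16. Their summed level ranged from 40.1 to 61.0 units in the 180-day black and from 34.6 to 61.1 units in the 180-day LY ovaries, and from 28.6 to 38.5 and from 29.3 to 40.2 units at 90 days, so it overlapped at both ages. Most of that sum was Lyz2, at 28.7 to 54.2 units in the 180-day LY ovaries.

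Markers of the main ovarian cell types also differed between the groups. The summed level of 5 granulosa markers (of 6 listed) ranged from 190 to 248 units in the 180-day black and from 136 to 183 units in the 180-day LY ovaries, without overlap, and from 194 to 281 and from 199 to 290 units at 90 days. That of 5 oocyte markers ranged from 45.4 to 57.3 and from 31.1 to 41.1 units at 180 days, again without overlap, and from 42.5 to 53.5 and from 47.3 to 49.3 units at 90 days. On every 180-day LY array the sums of the granulosa and oocyte markers thus lay below those of the black arrays, and the mean of the proteasome genes lay above. Inha and Inhba were the largest parts of the granulosa sum, and Zp3 was that of the oocyte sum. Their 180-day means in black and LY ovaries were 83.1 and 66.4 units (Inha), 115 and 85.9 (Inhba), and 31.4 and 18.7 (Zp3). By single genes, 1 of 5 granulosa (Amh) and 1 of 5 oocyte markers (Zp1) had an estimate above 0 at 180 days, and 4 of 5 of each at 90 days. The sum of 3 theca and steroidogenic markers (of 4 listed) ranged from 184 to 241 and from 229 to 369 units at 180 days, and from 232 to 375 and from 283 to 302 units at 90 days. Among them Star, which brings cholesterol into mitochondria, differed by 0.91 at 180 days and by -0.50 at 90 days on the log2 scale (adjusted p = 0.168 and 0.360). Cyp11a1, which makes pregnenolone, differed by 0.49 and -0.37 (adjusted p = 0.220 and 0.292), and its groups did not overlap at either age. Cyp17a1, which leads to androgens, differed by 0.49 and 0.45. Of the theca and steroidogenic markers, 3 of 3 were thus above 0 at 180 days and 1 of 3, Cyp17a1, at 90 days. Markers of fat (3 of 5 measured) summed to 12.7 to 32.2 units in black and 17.2 to 19.1 in LY ovaries at 180 days, and to 6.75 to 51.5 and 3.73 to 32.0 units at 90 days. Markers of the oviduct summed to 2.01 to 4.71 units in black and 2.11 to 2.23 in LY ovaries at 180 days. At 90 days they summed to 3.80 to 5.89 units in black and 2.59 to 3.05 in LY ovaries, without overlap, and Ovgp1 differed by -0.75 (adjusted p = 0.0836). Dynlrb2 had no value at 90 days and Foxj1 none on 180-day LY replicate 2, so the oviduct sums do not hold the same genes on every array. None of the granulosa, oocyte, or theca and steroidogenic markers measured lay under 0.2 units on any array. The part of cell composition in the proteasome differences was not tested.

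Between the age sets, the differences were larger than those between LY and black ovaries, and for the genes as a group their direction depended on normalization. With each array divided by its median, 29 of the 41 genes passed an adjusted p of 0.05 as higher at 180 days, against 33.8% of all probes, and 5 as lower, against 25.4%, with a median of 0.38 on the log2 scale against 0.06. By that scaling the brightest 10% of all probes had a median of 0.25, and the 30 proteasome genes among them had a median of 0.41. With quantile normalization 12 of the 41 genes were called higher and 18 lower, against 29.8% and 28.8% of all probes, with a median of -0.25. With cyclic loess they were 13 and 14, against 28.5% and 31.3%, with a median of -0.06. By all 3 normalizations, 11 genes were called higher and 5 lower, against 26.9% and 24% of all probes. The 5 were Psmb2, Psmd2, Psmd3, Psmd5 and Psmd13, and the 11 included Psmb8, Psmc5, Psmc6, Psme3, Psmc3ip and Psme3ip1.

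Psmc6, an ATPase of the cap, had means of 23.99 ± 0.988 units in the 180-day black, 27.2 ± 2.98 in the 180-day LY, 8.78 ± 1.53 in the 90-day black and 7.60 ± 0.193 in the 90-day LY ovaries (SD, n = 3). Psmd2, which encodes a large scaffold of the cap base, had means of 5.88 ± 0.721, 6.23 ± 0.837, 20.8 ± 2.52 and 19.04 ± 0.401 units in the same order. These genes of 1 complex thus moved in opposite directions between the age sets, by 1.65 and -1.72 on the log2 scale (adjusted p = 1.2e-07 for both). Psmd13 and the assembly factor Psmd5 were lower at 180 days, by -0.85 and -0.78 (adjusted p = 2.79e-05 and 8.98e-06). Psmd5 read 5.24, 4.29 and 5.16 units in black and 5.03, 5.46 and 5.99 units in LY ovaries at 180 days, and 9.29, 9.41 and 9.01 in black and 8.17, 9.56 and 8.07 in LY ovaries at 90 days. Psmc3ip was higher at 180 days by 1.44 (adjusted p = 2.21e-06). For Psme3ip1, whose 6 arrays at 90 days were all under the limit of 0.2 units, the level at 180 days was at least 2.70-fold higher. It entered the test only through its 180-day groups, so its call as higher at 180 days was not independent of the filter.

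Probes of 1 gene did not always give the same age difference. Of 5 genes with more than 1 probe, Psmb4 had a bright probe that differed by 0.23 between the age sets (adjusted p = 0.0441) and a dimmer one that differed by 2.03 (adjusted p = 5.25e-07). With quantile normalization the bright probe differed by -0.57. The dimmer probe read 51.7 ± 4.42 units in the 180-day black and 14.7 ± 4.51 units in the 90-day black ovaries. For LY against black ovaries, the bright probe differed by 0.17 and the dimmer one by 0.21 at 180 days, and by -0.16 and -0.14 at 90 days. Psmd12, a cap subunit, had a bright probe with an age difference of 0.71 and a dimmer one with -0.43. The age difference of a proteasome gene thus depended on the probe as well as on the normalization. For LY against black ovaries, the probes of Psmb4 and of Psmd11 had differences of the same sign at each age, whereas those of Psmc4, Psmd12 and Psme1 had opposite signs at 90 days, and those of Psme1 at 180 days too. The dimmer Psmd12 probe differed by 0.35 at 180 and 0.08 at 90 days, against 0.22 and -0.19 for the bright one.

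**Figure D5:**
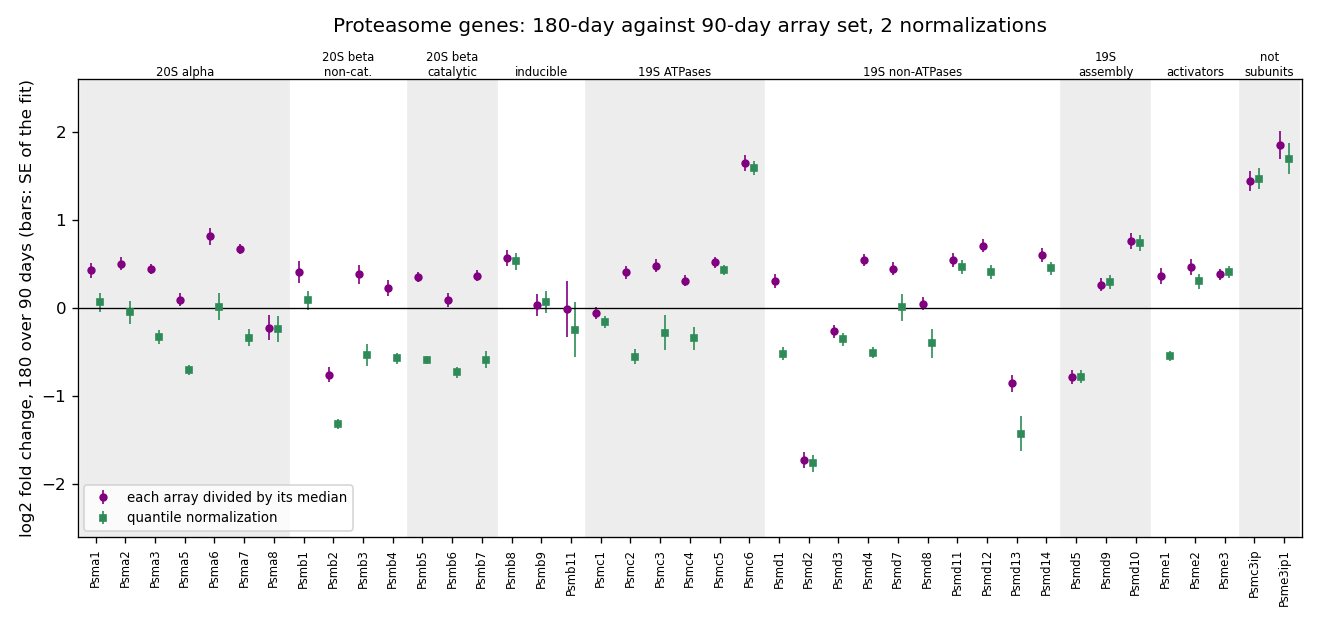
Log2 fold change of the 180-day over the 90-day arrays (vertical axis, mean of the LY and black groups of each age) for the 41 proteasome genes (horizontal axis, grouped by role), with each array divided by its median (circles) and with quantile normalization (squares), and bars for the standard error of the fit. Psmc6, Psmd2, Psmd5, Psmc3ip and Psme3ip1 hold their place under both, while most alpha and beta ring genes lie lower with quantile normalization, and the median goes from 0.38 to -0.25.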

How the data were processed

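Total RNA of 12 whole ovaries was hybridised to one-colour CodeLink whole-genome arrays with 30-base probes, 1 mouse per array, 3 per group. The deposited values are relative intensities: the authors subtracted background in the CodeLink software, and GeneSpring then put every slide on its own 50th percentile (median 1.00 on the 180-day and 1.04 on the 90-day arrays). Values are linear and are not centred gene by gene. The array number limits the precision, and the files give no depth.

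The values of an array were rescaled to a median of 1 unit, floored at 0.01 units and converted to log2. Log2 differences of probes with values under the floor depend on where it was set. Probes were named from the platform annotation (21615 with 1 symbol, 681 with several and 13931 with none). A probe was tested where some group averaged 0.2 units or more and all 4 groups had a value, which left 31359. limma 3.58.1 (R 4.3.3) estimated the 4 group means from the 12 arrays together, with 8 residual and 2.46 prior degrees of freedom. Adjusted p-values are two-sided, by Benjamini-Hochberg over all probes tested, with a threshold of 0.05. All limma comparisons share this spread, and the interaction uses the same arrays as the differences at each age. With 3 arrays against 3 an exact permutation test cannot go below 0.1, so none is given for single genes.

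The procedure was tested on simulated data with independent noise and planted changes larger than the LY and black differences of the proteasome genes. It thus does not show how often differences of their size would be called. The members, the lists and the rule for named genes were chosen with earlier results of these data known. By that rule the catalytic and inducible subunits, the activators, the genes with the 3 smallest p in each direction at each age, the 3 largest age differences in each direction, the assembly factors and the genes that are not subunits are named, and from each other list up to 3 genes by p. Psma3, Psma7 and Psmc1 were chosen after their values were seen. Alternatives were another normalization (quantile, none, and cyclic loess, the last chosen after seeing the data), floor, pseudocount, filter, variance prior, array weights, replicate block, arrays of 1 age, the methods' t-test, the mean over a gene's probes and leaving out each array. Promoters are from RefSeq (GRCm38.p6). Protein sequences were not used here.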

Additional observations from a re-analysis of the deposited data

How the results depend on the processing

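Apart from array weights and an intensity trend, no alternative called a proteasome gene between LY and black ovaries at either age or in the interaction, leaving out single arrays included. With array quality weights 1 gene was called at 180 days (Psmb5, log2 difference 0.39, adjusted p = 0.0467), and with an intensity trend 1 gene in the interaction (Psmb5, 0.56, adjusted p = 0.0420). Its adjusted p at 180 days was 0.144 in the fit as reported and 0.150 to 0.345 without single arrays. Over all probes, the count past the threshold was 14 at 180 days and ran from 0 with the methods' t-test to 146 with array weights. It was 14 at 90 days, from 1 with the methods' t-test to 200 with an intensity trend, and 0 in the interaction, up to 198 with an intensity trend. At an unadjusted p of 0.05 the proteasome genes past it numbered 7 at 180 days, 8 at 90 days and 14 in the interaction. Of all probes 12%, 13.3% and 12.1% were past it. Over the alternatives on all arrays or on 1 age the genes numbered 3 to 14, 3 to 10 and 4 to 20. The shares of all probes over these alternatives were 10.7% to 16.9%, 8.93% to 13.8% and 10.9% to 13.8%. The methods' t-test put 13 genes past an unadjusted 0.05 at 180 days (13.4% of all probes) and 4 at 90 days (8.93%), and none after Benjamini-Hochberg.

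Normalization moved the medians most. With quantile normalization the median of the 41 genes was 0.081 at 180 days, -0.038 at 90 days and 0.121 in the interaction, and with cyclic loess 0.085, -0.043 and 0.131, with 15 genes above 0 at 90 days. The LY minus black difference of the array means was 0.084 (quantile) and 0.095 (cyclic loess) at 180 days, and -0.055 (quantile) and -0.035 (cyclic loess) at 90 days. Between the age sets, quantile normalization called 12 genes higher and 18 lower (median -0.247, 17 genes above 0), and cyclic loess 13 and 14 (median -0.060, 19 above 0). Among single genes, Psmb7 at 90 days went to 0.152 (quantile) and 0.082 (cyclic loess), Psmc4 at 90 days to 0.043 (cyclic loess), and Psmb4 between the age sets to -0.567 (quantile) and -0.367 (cyclic loess). The cause was not tested.

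Without single arrays, the medians ran from 0.146 to 0.193 at 180 days, with 37 to 41 genes above 0. At 90 days they ran from -0.179 to -0.094, with 7 to 13 genes above 0. They ran from 0.242 to 0.339 in the interaction and from 0.353 to 0.406 between the age sets. Between the age sets 33 to 34 genes were called, against 55.6% to 58.4% of all probes. The differences of the array means (leaving out arrays here was chosen after seeing the data) ran from 0.143 to 0.20 at 180 days and from -0.148 to -0.059 at 90 days, the latter without 90-day black replicate 2. At 90 days the difference of 16 of the 41 genes crossed 0 when some array was left out, among them Psmb6 (-0.038 to 0.115), Psmb7 (-0.099 to 0.052), Psmb8 (-0.000086 to 0.110), Psmb9 (-0.057 to 0.205) and Psmb11 (-0.244 to 0.707). Psmb4 between the age sets ran from 0.185 to 0.301, with an adjusted p up to 0.102.

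Replicate numbers were shared across groups. Deviations of same-numbered LY and black arrays correlated at -0.069 to 0.148, and those of differently numbered arrays at -0.161 to 0.118. With 3 arrays per group these values cannot decide whether the numbers pair mice, and the labels do not say so. With the replicate number as a block, 0 proteasome genes were called between LY and black ovaries at either age and in the interaction, and 28 were higher and 5 lower between the age sets, against 33.5% and 25.1% of all probes. Psmb11 and Psme3ip1 lay near the limit of sensitivity, and the number of arrays, 3 per group, limits the precision of every difference.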
